A study of Caenorhabditis elegans with 2 samples.

Results

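The genes described here are the 111 C. elegans genes with the biotype snRNA in the Ensembl annotation of WBcel235, leaving out those whose symbol begins with sls-2 (the SL2 spliced leader RNA genes). They are 111 of 44762 annotated genes other than pseudogenes. For each gene the highest-ranked peak with a summit within 1000 bp of the gene start was taken from 4 deposited peak lists. The peaks came from 1 group of larvae, with 2 biological replicates and no second condition. Strain OP742 carries the transgene wgIs742, in which C02F12.10 (ceh-63) is joined to TY1, EGFP and 3xFLAG tags beside an unc-119(+) copy, and the background is unc-119(tm4063). The homeodomain protein CEH-63 was thus precipitated through a tag on a transgene. The larvae were starved L1 animals of pooled sexes at 6 hours, used whole. The description names an anti-GFP antibody, while the antibody field reads ceh-63. Sheared chromatin ranged from 200 to 800 bp. Whole larvae mix all cell types, so a peak cannot be placed in a cell type.

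Small nuclear RNAs (snRNAs) are the RNA parts of the spliceosome, the machine that removes introns. The U1, U2, U4 and U5 types are bound by a ring of Sm proteins and are transcribed by RNA polymerase II, whereas U6 is made by RNA polymerase III. Both kinds of promoter carry a proximal sequence element upstream of the start, which is read by the SNAPc complex, and a TATA box is typical of the U6 kind in animals. In nematodes, the SL1 RNA gives its leader to the ends of messenger RNAs by trans-splicing, and SmY RNAs are nematode RNAs that bind Sm proteins and are found with that machinery. CEH-63 belongs to the homeodomain class of DNA-binding proteins and has been described in the DVC interneuron.

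The annotations used give no U type for these genes, so members were put into groups by sequence identity (at least 80% over at least 80% of the shorter sequence) and called by number. There were 9 groups of 2 or more members, and 12 members fell in none. Group 1 (23 members, usually 102 bases) holds the word ACAGAGA, a word of the textbook U6 RNA, in 22. Group 2 (19 members, usually 187 bases) holds TGTAGTA, the textbook U2 word that pairs with the branch site, in 18. Group 3 (14 members, usually 165 bases) holds ACTTACCTG, the textbook 5′ end of U1 RNA, in 12, and includes sup-6 and sup-39, known as U1 suppressor genes. Group 4 (12 members, usually 122 bases) holds CTTTTAC, a textbook U5 loop word, in 11. Group 5 is the 12 SL1 genes, and group 6 is 8 of the 10 SmY genes. Group 7 (5 members, usually 144 bases) has no word of the kinds searched other than AATTTTTG, an Sm-site word, in all 5. No U4 word was searched, so whether group 7 is of that type was not examined.

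The windows of 10 members are shown: the 2 genes with the strongest peaks, 1 chosen identical copy of each (C28A5.7 and T11F9.15), and further members with and without the upstream words. Among the further members, F54D8.7 is of group 1, like W05B2.8, and F10D2.13 is of group 7, like C52E4.8. The rest are of other groups. Each window runs from 100 bases before the start to 10 bases from it, 5′ to 3′ on the gene strand (RefSeq sequence, WBcel235). Capitals mark the word GCGGAACC, or its form with 1 mismatch, and the word TATATAA between −45 and −10.
W05B2.8 (chrIII:10989579-10989688, plus strand): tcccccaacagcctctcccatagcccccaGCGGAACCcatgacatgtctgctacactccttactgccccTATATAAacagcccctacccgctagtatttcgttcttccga
F54D8.7 (chrIII:5080889-5080998, minus strand): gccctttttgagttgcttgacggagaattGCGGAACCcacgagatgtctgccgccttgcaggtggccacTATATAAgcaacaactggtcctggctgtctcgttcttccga
C28A5.7 (chrIII:4426946-4427055, minus strand): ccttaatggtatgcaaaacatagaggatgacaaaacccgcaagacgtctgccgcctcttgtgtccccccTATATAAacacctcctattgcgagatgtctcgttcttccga
C52E4.8 (chrV:11980018-11980127, plus strand): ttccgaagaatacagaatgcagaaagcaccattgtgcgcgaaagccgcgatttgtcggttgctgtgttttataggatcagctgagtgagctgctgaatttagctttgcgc
T11F9.15 (chrV:11478048-11478157, plus strand): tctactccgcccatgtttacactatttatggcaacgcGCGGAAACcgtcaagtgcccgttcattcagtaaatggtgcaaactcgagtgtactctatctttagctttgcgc
F10D2.13 (chrV:7142849-7142958, minus strand): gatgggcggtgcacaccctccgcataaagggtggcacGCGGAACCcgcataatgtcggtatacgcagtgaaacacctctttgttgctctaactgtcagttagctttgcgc
sup-6 (chrII:12944958-12945067, minus strand): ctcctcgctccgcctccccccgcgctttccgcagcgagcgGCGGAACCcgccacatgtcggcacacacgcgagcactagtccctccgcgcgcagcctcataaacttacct
C53B4.9 (chrIV:8994648-8994757, plus strand): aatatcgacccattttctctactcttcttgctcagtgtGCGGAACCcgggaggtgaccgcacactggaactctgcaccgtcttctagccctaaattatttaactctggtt
smy-4 (chrV:14094690-14094799, minus strand): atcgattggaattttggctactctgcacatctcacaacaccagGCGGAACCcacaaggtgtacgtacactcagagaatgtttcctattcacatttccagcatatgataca
Y57G11C.35 (chrIV:14765025-14765134, minus strand): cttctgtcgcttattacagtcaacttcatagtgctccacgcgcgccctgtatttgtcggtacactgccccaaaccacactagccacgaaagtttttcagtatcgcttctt

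The annotated RNA of C52E4.8, the member with the highest-ranked peak, is shown because T11F9.15 has the identical sequence. Capitals mark AATTTTTG.
C52E4.8 RNA (chrV:11980118-11980261, plus strand): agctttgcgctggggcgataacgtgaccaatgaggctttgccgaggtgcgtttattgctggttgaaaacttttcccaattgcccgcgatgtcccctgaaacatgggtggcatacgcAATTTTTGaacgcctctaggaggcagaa

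The word GCGGAACC was 1 of 2 overlapping words of 8 bases found in the largest number of members, 26 of 111 (23.4%), in a window of 150 bases before to 50 bases after the start. On either strand, 0.29% of all genes and 4 of 18 SL2 RNA genes (22.2%) held it in the same window. The word was thus not particular to the members. In every member it lay on the gene strand, between −75 and −57, with a median of −62. With up to 1 mismatch between −85 and −45, 44 members (39.6%) held it, against 0.556% of all genes, and groups 2, 5, 8 and 9 had no such member. The word TATATAA lay between −45 and −10 in 16 members, 15 of them in group 1 and the other M163.13, against 1.27% of all genes. Both words stood together in 4 members: W05B2.8, F54D8.7, Y17G9A.85 and T08B6.62.

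**Figure D1:**
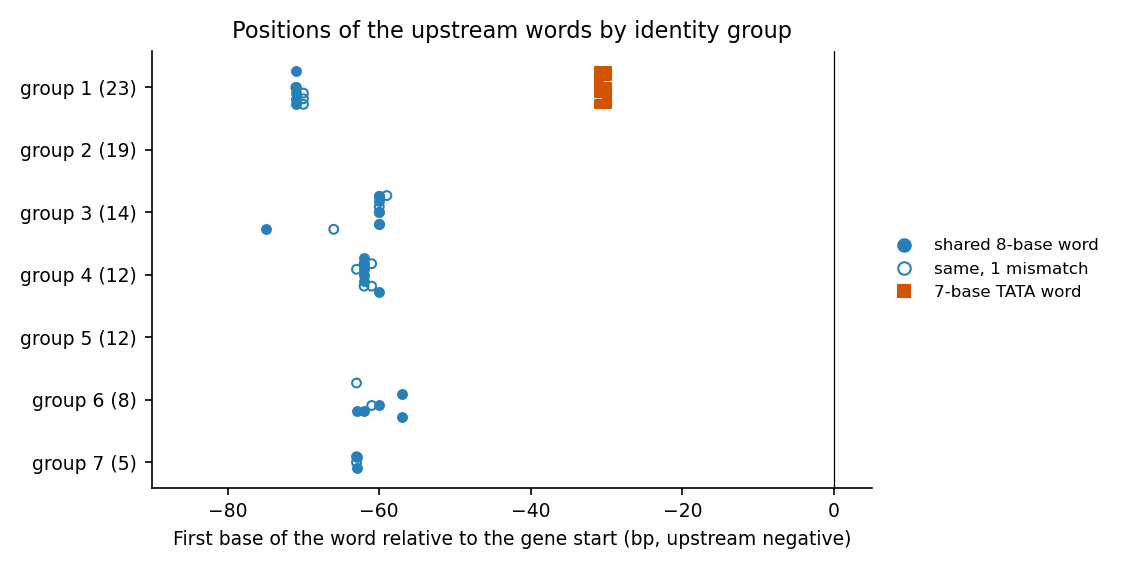
Position of the first base of each upstream word relative to the gene start (bp, upstream negative), by identity group with the number of members in parentheses. Filled circles are exact copies of the 8-base word, open circles hold 1 mismatch, and squares are the 7-base TATA word; the exact words lie between −75 and −57.

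Of the 111 snRNA genes, 2 had a peak in the reproducible list, the 479 peaks that the authors kept after an irreproducible discovery rate (IDR) step. That is 1.8%, with a 95% Wilson interval of 0.496 to 6.33, where the background of all genes was 1.29%. In the top 479 of replicate 1 the count was 2 (1.8%), against 1.41% of all genes. In the top 479 of replicate 2 it was 3 (2.7%), against 1.34% of all genes. Pooled peaks with a q of 0.05 or less were found at 2 members (1.8%), against 0.59% of all genes. In the relaxed pooled list of 30000 peaks, 49 members (44.1%, interval 35.3 to 53.4) had a peak, against 48.8% of all genes. For replicate 2 the interval of the members' share was 0.923 to 7.65, and for the other counts of 2 it was 0.496 to 6.33. Each of these 5 backgrounds lay inside the interval of the members' share, so these counts are no result about the class. No test was made: the intervals cover counting error only, and neighbouring members and copies are not independent.

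Other small RNA classes were set beside the members. SL2 RNA genes, which share the Sm-type and spliced leader biology of SL1, had a reproducible peak at 6 of 18 (33.3%, interval 16.3 to 56.3). The share was 7.23% of 346 snoRNA genes (interval 4.94 to 10.4), 4.21% of 261 microRNA genes (2.37 to 7.39) and 3.59% of 612 tRNA genes (2.39 to 5.38). No rRNA gene of 20 had one, which allows a share of up to 15%. With each peak given only to its nearest start, the shares were 1.8% of the snRNA genes, 2.89% of snoRNA, 1.15% of microRNA and 1.47% of tRNA genes. The nearest-start setting was not run for the SL2 RNA genes, whose 6 genes had 5 separate reproducible peaks. The top 479 of replicate 2 alone gave 2.7% of snRNA and 1.92% of microRNA genes. In the piRNA genes, 0.169% of 15363 had one. Pooled peaks were found at 77.8% of SL2 RNA genes, 68.5% of snoRNA genes, 61.8% of tRNA genes and 53.3% of microRNA genes. The strongest reproducible peak of each class had rank 53 for the snRNA genes (C52E4.8), 12 for SL2 RNA (sls-2.4, summit at −40 bp), 18 for snoRNA (F59C6.15, −71 bp), 11 for tRNA (C18A11.t2, +378 bp) and 30 for microRNA (mir-52, −5 bp). For piRNA it was rank 53 again, since 21ur-10927 starts within 1000 bp of the C52E4.8 summit.

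**Figure D2:**
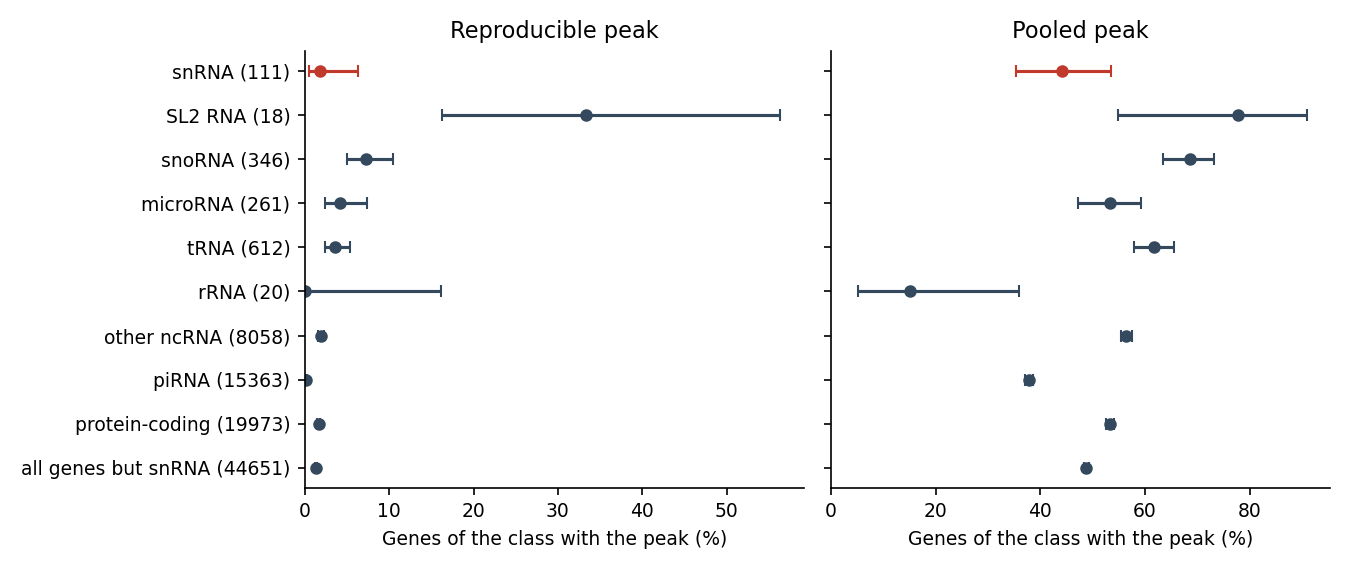
Percentage of genes of each class with a reproducible peak (left) and with a pooled peak (right) within 1000 bp of a start, with the number of genes in parentheses. Points are shares and bars are 95% Wilson intervals; the snRNA interval for reproducible peaks (0.496 to 6.33%) contains the 1.29% of all other genes.

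C52E4.8 (WBGene00014291, chrV:11980118-11980261, plus strand), of group 7, had the highest-ranked peak. Its best peak ranked 28 in replicate 1, with the summit 18 bp upstream, and 116 in replicate 2, with the summit 123 bp downstream. In the pooled list it ranked 53, with a signal of 215 in the authors' units, a −log10 q of 1.58 and the summit 22 bp upstream, over chrV:11979911-11980280. A second reproducible peak, rank 120 with its summit at +190, lay beside it, and replicate 1 had a separate peak there at rank 199 (+198). Replicate 2 had 1 peak in this stretch. The reported summit is the centre of the peak interval, usually 370 bp wide in the pooled list. The precision of summits between lists was not tested, so differences shorter than this width cannot be taken as resolved.

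The C52E4.8 summit also lay near 3 other starts. The start of C52E4.14, a non-coding RNA gene, was 137 bp away and that of snr-4, which encodes an Sm protein and is transcribed away from C52E4.8, was 373 bp away. The piRNA gene 21ur-10927 started 763 bp away. The start of C52E4.8 was the nearest, at 22 bp.

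W05B2.8 (WBGene00014543, chrIII:10989679-10989780, plus strand), of group 1, had the other reproducible peak. Its best peak ranked 43 in replicate 1 (summit at −26 bp) and 298 in replicate 2 (+45 bp). In the pooled list it ranked 99, with a signal of 175, a −log10 q of 1.45 and the summit at −58 bp, over chrIII:10989436-10989805. No other gene start (pseudogenes left out) lay within 1000 bp of that summit, the next being col-94, a collagen gene, at 1748 bp. The shared word at −71 and the TATA word at −31 both lay inside this interval.

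The other members of the same sequence did not share these ranks. Counting W05B2.8, 14 members had its RNA sequence. C28A5.7, the next best of them, ranked 1575 in the pooled list, with its summit at −710 bp, and a weaker pooled summit (rank 11466) lay 37 bp from its start. The rest had a pooled rank of 20630 or beyond, or no pooled peak. The copy identical to C52E4.8, T11F9.15, had no pooled peak, and its best peaks ranked 7163 in replicate 1 (−102 bp) and 15219 in replicate 2 (+79 bp). C52E4.8 had the shared word in no form with up to 1 mismatch, whereas T11F9.15 held it with 1 mismatch at −63. Forms with more mismatches were not searched. Among the copies of W05B2.8, Y17G9A.90 (pooled rank 25356) also had the exact word at −71, and several others, such as R07E5.16 (rank 29043), had the TATA word at −31.

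The 4 members with both words differed too. W05B2.8 ranked 99 in the pooled list. F54D8.7 ranked 2930 there (−34 bp), 4913 in replicate 1 (−30 bp) and 3406 in replicate 2 (+82 bp). Y17G9A.85 had no peak in any list, and T08B6.62 had only a replicate 2 peak, rank 21211 at +634 bp. Over all members, 14 of the 49 with a pooled peak (28.6%) held the exact shared word, and 12 of the 62 without one (19.4%).

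The best ranks below those 2 genes lay well apart, with no member between pooled ranks 99 and 1170. F32B5.9 of group 4 ranked 1170 in the pooled list (+139 bp), 1137 in replicate 1 (+126 bp) and 2013 in replicate 2 (+307 bp). sup-39 ranked 1210 (+211 bp), 874 in replicate 1 (+214 bp) and 4693 in replicate 2 (−61 bp), and a weaker pooled summit (rank 12400) lay 22 bp from its start. Its peak was also the best of mir-1831, a 22-base entry of snRNA biotype inside sup-39, and the nearest start was the piRNA gene 21ur-14704 at 9 bp. F42C5.12 of group 4 ranked 1744 in the pooled list (−772 bp), 484 in replicate 1 (−782 bp) and 16718 in replicate 2 (−991 bp). sup-6 alone ranked within the top 479 of a replicate without a reproducible peak. It ranked 451 in replicate 2 (+270 bp), 5508 in replicate 1 (+115 bp) and 2626 in the pooled list (+227 bp). sup-39, F42C5.12 and sup-6 thus ranked far apart between the replicates. W05B2.8 differed between them too, at ranks 43 and 298. Of all members, C52E4.8 and W05B2.8 alone lay in the top 479 of both replicates.

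**Figure D3:**
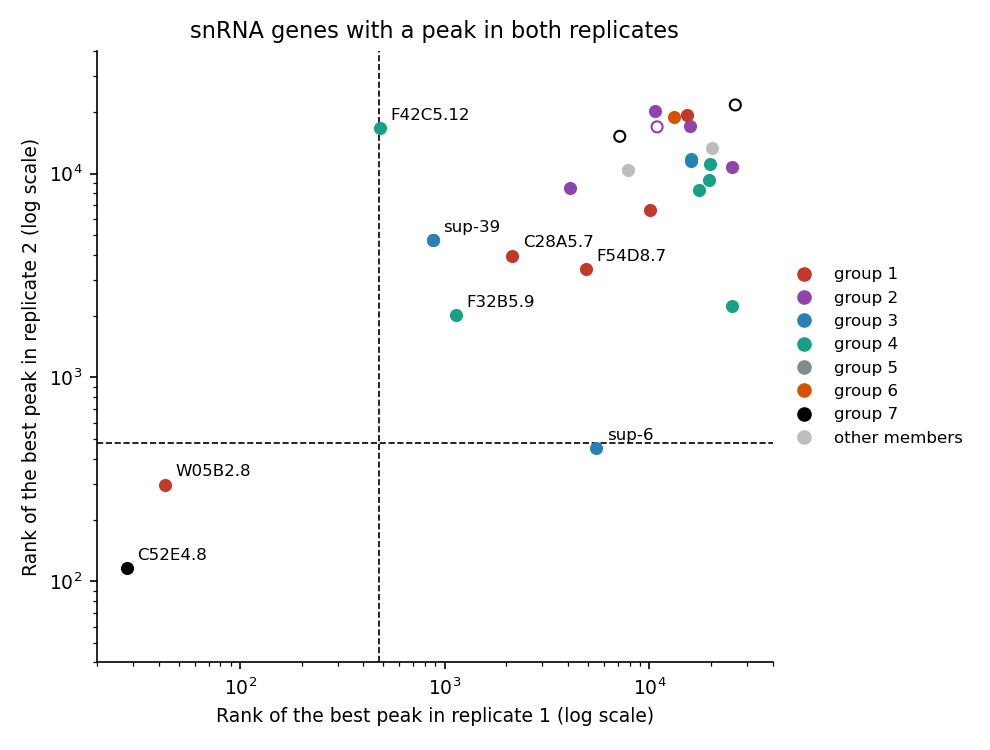
Rank of the best peak of each snRNA gene in replicate 1 (x axis) and replicate 2 (y axis), both on log scales, for members with a peak in both. Filled points also have a pooled peak, colours are identity groups, and dashed lines mark rank 479; C52E4.8 and W05B2.8 are the only members below both lines.

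Most members with a pooled peak had a weak one, as was usual for all genes in this relaxed list. The median pooled rank of the 49 was 15333, against 12799 over all genes with a pooled peak. Of the 49, 31 ranked beyond 10000, and the median over all genes lay beyond 10000 too. The summits were spread evenly, 25 upstream and 24 at or downstream of the start. Within 100 bp lay 8 summits (16.3%), against 12.4% over all genes with a pooled peak, 17 lay further than that but within 500 bp, and 24 lay beyond 500 bp. The median distance was 483 bp, against 461 bp over all genes. In 26 members the member itself had the nearest start to its peak, and in 23 another gene did, as for the peak of F20D1.21, whose summit was 919 bp upstream of it and 176 bp from the start of F45B8.5.

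**Figure D4:**
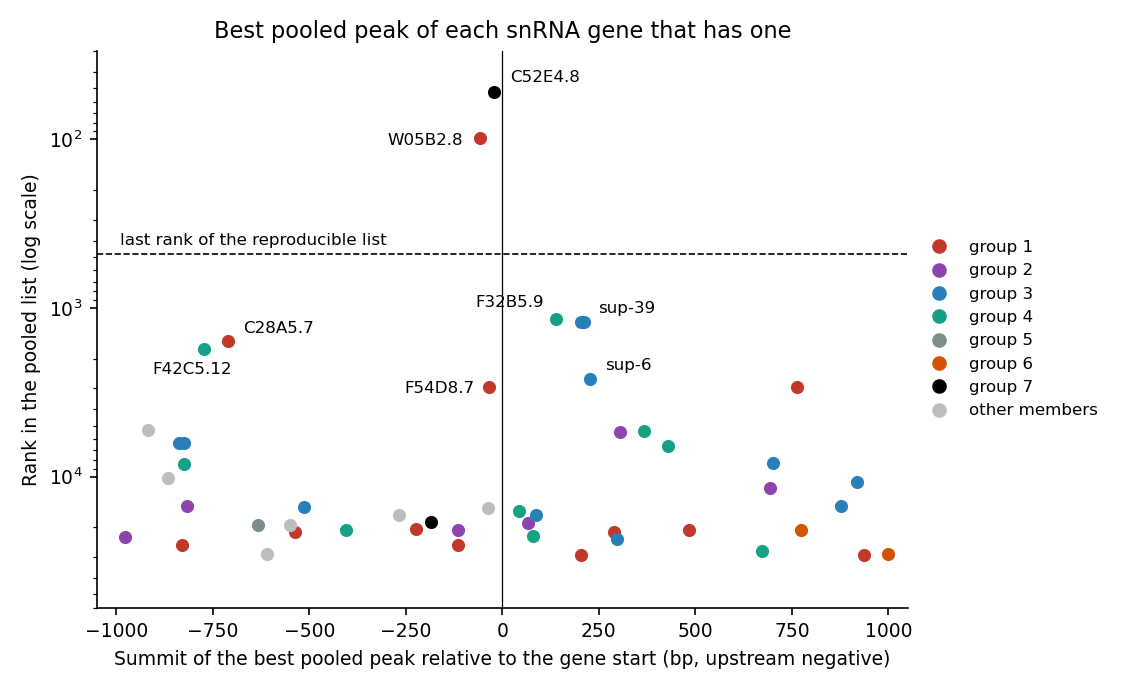
Best pooled peak of each of the 49 snRNA genes that had one: summit position relative to the gene start (x axis, bp) against rank in the pooled list (y axis, log scale, best at the top). The dashed line marks the last rank of the reproducible list, which C52E4.8 at rank 53 and W05B2.8 at rank 99 alone reached; mir-1831 and sup-39 share a peak.

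By group, pooled peaks were found at 12 of 23 members of group 1, 6 of 19 of group 2, 11 of 14 of group 3, 9 of 12 of group 4 and 2 of 5 of group 7. These are 52.2%, 31.6%, 78.6%, 75% and 40% of the members of groups 1, 2, 3, 4 and 7, against 48.8% of all genes, with no test. The best pooled rank was 5471 in group 2, at Y57G11C.35 (+305 bp), where another start was nearer. The SL1 genes had a pooled peak at 1 of 12, sls-1.12 with rank 19373 at −634 bp, and the 10 SmY genes at 2, smy-1 (rank 20739) and smy-7 (rank 28836, summit at +999 bp). Neighbouring copies shared few peaks. The best peaks of the 49 members were 46 separate pooled peaks. Of the shared ones, only that of K09B11.15 with K09B11.16 joined separate copies. The others were shared by overlapping entries: mir-1831 inside sup-39, and T27E4.22 with T27E4.12, whose annotated intervals overlap. Both entries of each overlapping pair count among the 11 members of group 3 with a pooled peak.

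Of the 62 members without a pooled peak, 44 had no peak in any list and 18 had one in at least 1 replicate (11 in replicate 1, 11 in replicate 2 and 4 in both). Those 62 had their nearest pooled summit between 1010 and 12669 bp away, with a median of 2906 bp. The closest were F54C8.8 (1010 bp), W07G1.8 (1028 bp), T14B4.10 (1036 bp), W07G1.24 (1079 bp) and ZK897.3 (1089 bp). W07G1.8 had a peak in each replicate, rank 10901 at −40 bp in replicate 1 and rank 16935 at −696 bp in replicate 2. Taking all members, 49 had a peak in replicate 1, 44 in replicate 2, and 23 in both and in the pooled list.

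Repeats can leave few reads that map to a single place, and the mapping rule is not given in the sources used here. In the 371 bases centred on each start, the share of 50-base words that occur once in the genome had a median of 75.8% in members, against 100% in all genes. Under 50% of the words were unique at 30 members (27%), against 1.98% of all genes. Of these 30, 8 (26.7%) had a pooled peak, and of the 31 members with at least 90% unique words 12 (38.7%) had one. The share was highest in between, at 29 of the 50 members with 50% to under 90% unique words (58%), so it did not rise steadily with uniqueness. The medians were 75.8% in members with a pooled peak and 74.5% in members without one. The SL1 genes had a median of 0%, and the only one with a pooled peak, sls-1.12, had 15.5%. SmY genes had 98.8% or more unique words in group 6, and 2 of those 8 genes had a pooled peak. W05B2.8 had 82% unique words, the highest share among the members with its RNA sequence. Every other one of them had less, such as Y17G9A.90 (78%) and C28A5.7 (59.6%), and several had under 50%. The W05B2.8 set thus differed in uniqueness as well as in rank. C52E4.8 had 69.3% unique words, and its copy T11F9.15 had 69.6%. How far uniqueness affects the calls was not tested.

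**Figure D5:**
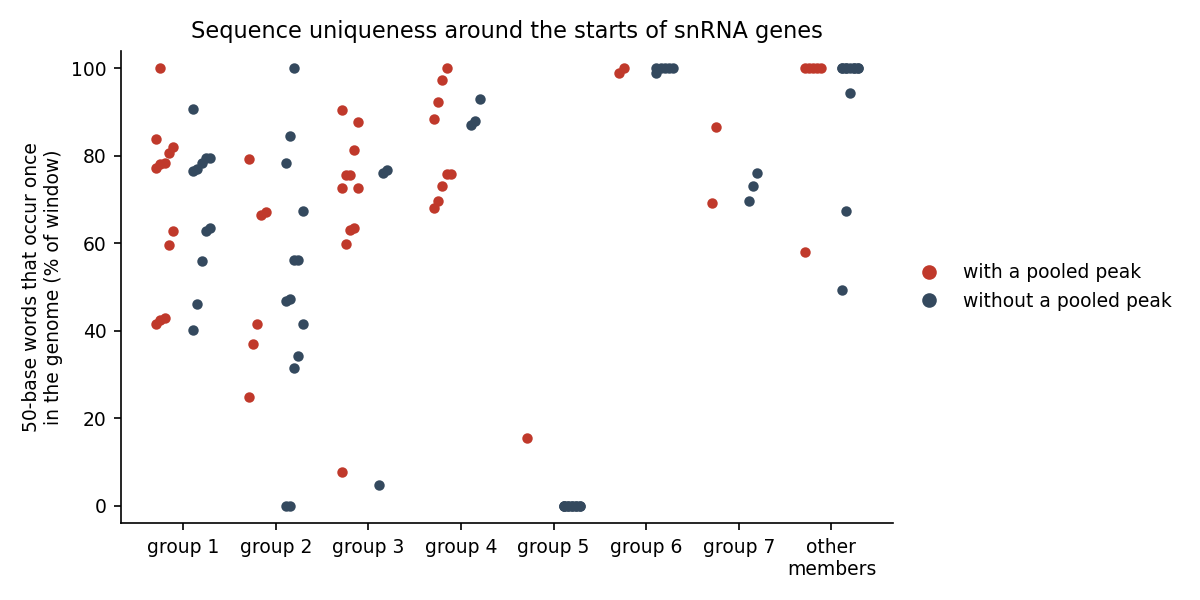
Share of 50-base words around each start that occur once in the genome (y axis, percent), by identity group. Each point is a member, with a pooled peak (left in each group) or without (right); the SL1 genes of group 5 sit between 0 and 15.5%.

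Proteins that make or work with snRNAs were then listed, to see whether the peaks lay at their genes. Of 68 symbols, 63 matched the annotation, and 5 (7.94%) had a reproducible peak. The share was 1.29% of all genes and 1.66% of protein-coding genes, and no interval or test was made for the lists. The 5 were 2 of 11 subunits of Integrator, which cuts snRNA 3′ ends, 2 of 9 Sm and SMN genes, and 1 of 23 splicing factor genes. The SNAPc list (9 genes), the LSm list (8 genes) and the trans-splicing list (3 genes) had none. Among the 5, ints-4 had its peak (rank 59 in the pooled list, 70 in replicate 1, 68 in replicate 2) nearest its own start, at +32 bp. The other 4 peaks were nearer another start: ints-8 (rank 118, 884 bp away; rpr-1, the RNase P RNA gene, at 7 bp), snr-1 (rank 95, summit at −419 bp; snx-13 nearer), prp-19, a spliceosome-associated ubiquitin ligase (rank 28, summit at −657 bp; K10D2.5 at 18 bp), and snr-4, which shares the rank 53 peak with C52E4.8.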

How the data were processed

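ChIP-seq peaks of 2 biological replicates (1 group) were used. Per the deposited README files, the authors called peaks on each replicate and on both together, with a control alignment, on ce11 (the WBcel235 sequence), and derived the reproducible list by IDR. No source used here gives the aligner, caller, threshold or read depth. Per the deposited narrowPeak columns, a peak carries a signal value on an unstated scale, from which ranks within each list were taken, and the −log10 of a q-value. Depth is unknown, so Wilson intervals (95%) cover counting only. Nothing says how far the replicates share larvae or handling.

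A peak was assigned to every gene of Ensembl release 115, pseudogenes left out, with a start within 1000 bp of its summit, and the highest-signal one stood for the gene. Names and sequences came from RefSeq by WormBase ID (111 of 111 members matched with the same coordinates). Words of 50 bases were counted over the genome on both strands. Scripts were tested on simulated data (Python 3.11.15, numpy 2.4.6, scipy 1.17.1, Biopython 1.88, matplotlib 3.10.9).

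Members, groups and lists were chosen with earlier results of these data known, and the TATATAA word, the 1-mismatch search and the position windows were chosen after seeing the data. Named genes are the members with a reproducible peak, members in the top 479 of a replicate without one, the 5 next by pooled signal, the 5 without a pooled peak whose nearest pooled summit was closest, genes with a nearer start, the strongest gene of each class, and listed pathway genes with a reproducible peak. F54D8.7, Y17G9A.85, T08B6.62, T11F9.15, Y17G9A.90, R07E5.16, F20D1.21, the SmY and SL1 genes named, and the copies sharing peaks lie outside that rule and were named after their values were seen. A further RNA sequence is not reported here.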

Additional observations from a re-analysis of the deposited data

How the results depend on the processing

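Counts of snRNA genes with a reproducible peak stayed at 2 with starts within 500 bp, with q of 0.05 or less, with the upper part of the list by signal (239 peaks), with only the nearest start and with pseudogenes kept, and came to 3 within 2000 bp, where Y69A2AR.36 was added (rank 128, −1535 bp). Members in the top peaks of both replicates stayed at 2 within 500 bp and among the top 1000, and came to 3 within 2000 bp. Without replicate 1 (the top 479 of replicate 2 alone) and without replicate 2 (the top 479 of replicate 1 alone), the count ran from 2 to 3, the separate best peaks from 2 to 3, and the share from 1.8 to 2.7%. The median summit distance changed sign, running from −22 to 123 bp, against −40 bp. Without replicate 1 it rested on 3 genes, W05B2.8 (+45 bp), C52E4.8 (+123 bp) and sup-6 (+270 bp). Without replicate 2 and in the main setting it rested on the first 2 of these alone. Members with a pooled peak ran from 44 to 49. The shares for snoRNA genes ran from 5.78 to 6.94%, for tRNA genes from 3.1 to 5.07%, for microRNA genes from 1.92 to 3.83% and for all other genes from 1.33 to 1.4%. Members with a pooled peak fell to 27 within 500 bp and also to 27 with only the nearest start. The other shares moved as follows. Within 500 bp, 3.76% of snoRNA genes and 0.894% of all other genes had a reproducible peak. Within 2000 bp it was 1.9% of all other genes. With q of 0.05 or less it was 3.76% of snoRNA, 0.98% of tRNA, 0.383% of microRNA and 0.587% of all other genes. With the upper part of the list it was 3.76%, 1.14%, 1.15% and 0.683% for the same classes. With only the nearest start it was 2.89%, 1.47%, 1.15% and 0.703%. The median share of unique words was 82.8% with words of 75 bases. In all, 54 of 75 alternative values counted as unchanged. For shares this meant inside the Wilson interval of the main share, which is wide for the snRNA genes (0.496 to 6.33%). For counts it meant within 1.5 times. For the median distance it meant the same sign and within the SD over replicates, 103 bp. The cause of the sign change was not tested. No paired analysis was possible because the study has 1 group. With 2 replicates, unknown depth and no control library here, no difference between replicates can be tested.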

Other observations

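The homeodomain core TAATTA was searched on both strands within 50 bp of the summits. Of the 67 pooled peaks within 1000 bp of a snRNA gene start, 1 (1.49%) held it, against 3.9% of all 30000 pooled peaks, and it was absent from the 46 that were the best peak of a member. None of the 3 peaks in the reproducible list near C52E4.8 and W05B2.8 held it. No match says only that these letters are not in those windows.
By chromosome, pooled peaks were found at 14 of 40 members on V, 16 of 36 on IV, 6 of 13 on II, 6 of 12 on I, 5 of 7 on III and 2 of 3 on X. Over all genes the share with a pooled peak was 50.5% on V, 41.3% on IV, 53.9% on II, 57.4% on I, 59.7% on III and 54.2% on X. Neighbouring members of one chromosome share arrays, so these shares were not tested.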
